A study of Homo sapiens with 4 samples.

Results

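A set of 10 genes that mark epithelial or mesenchymal identity were read on arrays of LNCaP-derived prostate cancer cells. CDH1 and EPCAM stood for the epithelial side, and CDH2, VIM, FN1, ZEB1, ZEB2, SNAI1, SNAI2 and TWIST1 for the mesenchymal side. A probe belonged to a gene when the RefSeq transcript given for it in the files carried that gene's symbol, and this found 14 probes for the 10 genes, of 19483 genes named on the array. With tetracycline, VIM was 9.94-fold higher in TR9_MeTA14 and 12.4-fold higher in TR15_MeTA5, and it was the only one of the 10 genes to pass the test over both lines. EPCAM was 8.56-fold lower in TR9_MeTA14 and 1.32-fold lower in TR15_MeTA5, while CDH1 stayed within 1.37-fold of its untreated signal in both lines. FN1 and TWIST1, on the mesenchymal side, were at least 4.25-fold and 3.67-fold lower in TR9_MeTA14, and ZEB1 and ZEB2 were at or near background throughout.

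Epithelial cells are held together by junctions, in which E-cadherin, the product of CDH1, binds its counterpart on the neighbouring cell, and EPCAM is a surface adhesion protein of most simple epithelia. In the epithelial to mesenchymal transition, transcription factors of the SNAI, ZEB and TWIST families repress CDH1 and other epithelial genes. The cells then gain N-cadherin (CDH2), the intermediate filament protein vimentin (VIM) and the matrix glycoprotein fibronectin (FN1). LNCaP is a human prostate cancer line with luminal epithelial features, established from a lymph node metastasis.

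RNA came from TR9_MeTA14 and TR15_MeTA5 cells, each grown without tetracycline (-Tet) or with it for 4 days (+Tet), on 1 array per condition and 4 in all. Both lines are stable transfectants of LNCaP that carry the Tet repressor plasmid pcDNA6/TR and a tetracycline-inducible NFκB (AD)-MBD with a 3xFLAG tag, a transcriptional activation domain joined to a domain that binds methylated CpG, and both are kept in blasticidin and zeocin. The MeTA method uses this fusion to turn on genes whose promoters are methylated. All 4 arrays held cells with both constructs, so an effect of tetracycline itself and one of the fusion protein cannot be told apart, and whether each line is 1 clone is not given in the sources used here.

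The values are processed signals, the brightness of a spot after background subtraction, and fold changes were taken after each array was divided by its 75th percentile. Those percentiles lay between 367 and 777, and between 20563 and 24217 of 34127 probes per array were well above background by the scanner software's own flag. When the dimmer array did not measure a probe well above background, the brighter signal was set against the lowest signal with that flag (13.9 to 19.2), or against the dim signal itself where that was higher, and the change is a bound, written as at least that value. Probes with 10 spots gave a technical SD of 0.087 for a log2 ratio of single spots, which leaves out all error between arrays. There was no replicate of any condition, so that changes within a line carry no p-value, and precision is limited by how few arrays there are. Signals of different probes are not comparable with each other, and the arrays read RNA from whole cultures, so that fewer cells of a kind and less RNA per cell cannot be told apart.

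The labelled cell type was checked against luminal prostate markers. All 14 markers were well above background in TR9_MeTA14, and 13 of 14 in TR15_MeTA5, in which TRPM8 was not. KLK3, which encodes prostate-specific antigen and is named here as a defining marker, had signals of 144067 (-Tet) and 47017 (+Tet) in TR9_MeTA14 cells and of 135330 and 123470 in TR15_MeTA5 cells. Of the 14 markers, 9 were at least 2-fold lower with tetracycline in TR9_MeTA14 and 0 in TR15_MeTA5, beside 15.1% and 2.22% of all genes, and by limma, fitted over both lines, 0 of 14 passed at an adjusted p below 0.05 and 7 had an unadjusted p under 0.05. Their median log2 fold change, over the 13 with a value in both lines, was -1.65 and -0.62. EPCAM was lower in TR9_MeTA14 as well, and the part of these markers in its change was not tested.

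The fusion protein recognizes methylated CpG, and so the CpG dinucleotides of the promoters of VIM and FN1 are shown, since of the mesenchymal effectors CDH2, VIM and FN1 they had the largest increase and the largest decrease in TR9_MeTA14. Both stretches are the 250 bases before a transcription start in RefSeq on GRCh38.p14. That of VIM is chr10:17227991-17228240 on the plus strand, and that of FN1 is chr2:215436069-215436318 on the minus strand. They are written 5′ to 3′ with CG in capitals.
VIM: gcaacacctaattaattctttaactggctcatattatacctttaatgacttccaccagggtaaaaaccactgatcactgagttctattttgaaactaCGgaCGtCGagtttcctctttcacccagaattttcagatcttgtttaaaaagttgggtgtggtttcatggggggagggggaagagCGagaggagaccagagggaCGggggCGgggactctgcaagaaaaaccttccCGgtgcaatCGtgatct
FN1: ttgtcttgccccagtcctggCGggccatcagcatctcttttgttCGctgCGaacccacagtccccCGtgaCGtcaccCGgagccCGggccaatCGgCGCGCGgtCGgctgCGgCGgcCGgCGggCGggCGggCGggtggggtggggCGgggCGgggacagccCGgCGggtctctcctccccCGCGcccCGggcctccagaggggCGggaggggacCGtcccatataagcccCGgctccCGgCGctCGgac
The VIM stretch held 8 CG and that of FN1 held 32, beside a median of 11 over 35116 promoters of the same length. Each of the genes had 1 start in the sequences used. Bases after that start are not in these counts, which therefore do not describe the rest of the promoter region. As many as in VIM were found in 56.3% of these promoters, and as many as in FN1 in 9.52%. Neither stretch held the E-box CACCTG, read on both strands as CACCTG or CAGGTG, a sequence that SNAI and ZEB proteins bind, and which 17.5% of all promoters held. The table also gave starts for CDH2, ZEB1 and ZEB2. ZEB2 had 12 CG, CDH2 had 17 and 4 at its 2 starts, and ZEB1 had between 7 and 27 at its 7 starts. The arrays did not measure methylation, and a CG in these letters says nothing about whether it is methylated in these cells.

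CDH1, on chromosome 16, was read by probe A_23_P206359, which was printed 10 times on each array. Its mean signals in TR9_MeTA14 were 7036 untreated and 9332 treated, and those in TR15_MeTA5 were 5498 and 5955. The 10 spots lay between 6707 and 7368, 8684 and 9733, 5228 and 5687, and 5555 and 6207 on these arrays, respectively. All spots of the gene were thus far above the lowest measured signals. After scaling, the tetracycline response of CDH1 was 0.08 on the log2 scale in TR9_MeTA14, or 1.05-fold higher, and -0.45 in TR15_MeTA5, or 1.37-fold lower. Among all genes compared, 6496 of 15079 rose more in TR9_MeTA14, and 2912 of 14343 fell more in TR15_MeTA5. Taken over both lines, the limma estimate was -0.19 on the log2 scale (SE 0.28, adjusted p = 0.734), and it turned to 0.10 under spike-in scaling, in which control RNAs added in known amounts set the scale.

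EPCAM, on chromosome 2, was read by A_23_P91081. In TR9_MeTA14 its signal went from 11335 to 1664 on treatment, and the pair of TR15_MeTA5 arrays gave 5779.7 and 6452. The treated TR9_MeTA14 array stood apart, with a scaled log2 signal of 1.10 against 3.57 on the lowest of the other 3. The response was -3.10 on the log2 scale in TR9_MeTA14, or 8.56-fold lower, and 111 of 15079 genes fell more. In TR15_MeTA5 it was -0.41, and 3499 of 14343 genes fell more. With spike-in scaling the TR15_MeTA5 value was 0.03, so its direction depends on the scaling, whereas the TR9_MeTA14 value lay between -3.19 and -2.96 under all settings run. The response differed between the lines by 2.69 on the log2 scale, or 6.47-fold, which was not tested for lack of replicates. The limma estimate over both lines was -1.75 (SE 0.70, adjusted p = 0.271), lower in 2 of 2 lines, which did not pass the threshold of 0.05.

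**Figure D1:**
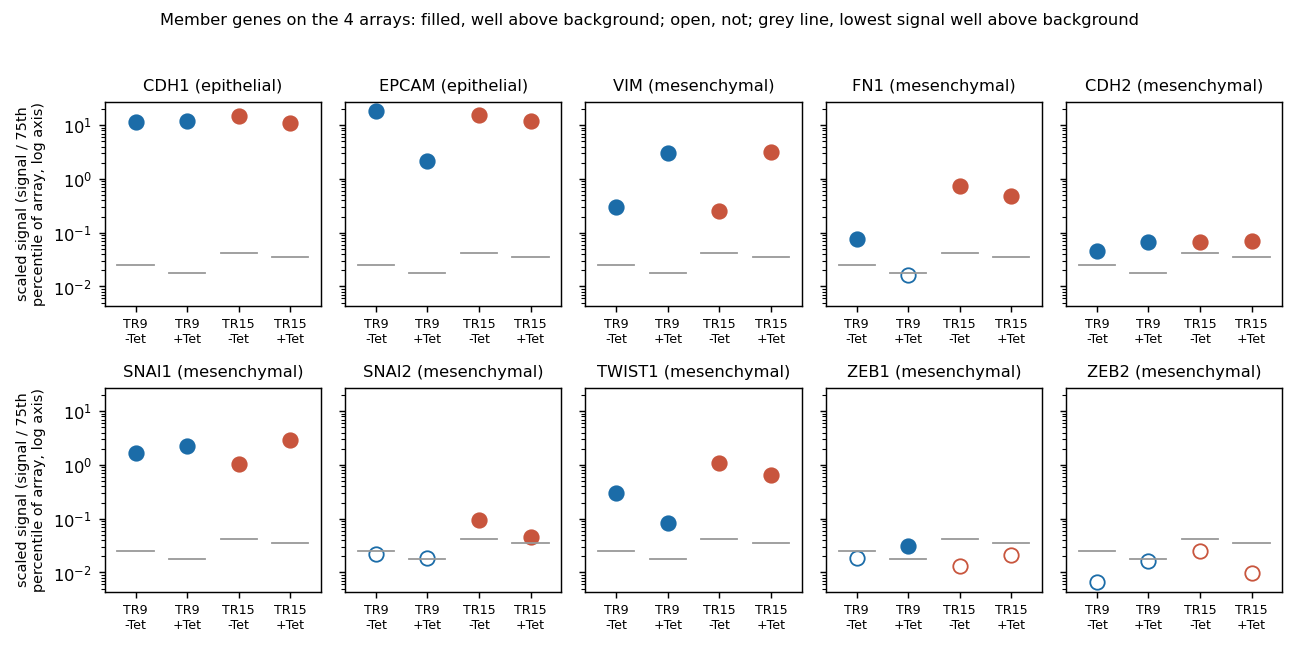
Scaled signal (signal divided by the 75th percentile of its array, log axis) of the brightest probe of each of the 10 genes on the 4 arrays, blue for TR9_MeTA14 and red for TR15_MeTA5. Filled points are well above background, open points are not, and the grey line is the lowest signal well above background on that array. VIM is higher on both +Tet arrays, EPCAM is more than 2-fold lower with tetracycline in TR9_MeTA14 only, and ZEB2 is open on all 4 arrays.

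VIM, on chromosome 10, was read by A_23_P161190, and no array had it at background. Its signal went from 189.8 to 2372 on treatment of TR9_MeTA14 cells, and from 92.2 to 1697 on treatment of TR15_MeTA5 cells. Both treated arrays were higher than both untreated arrays, and after scaling the lines differed by 1.22-fold without tetracycline and by 1.03-fold with it. VIM was 9.94-fold higher in TR9_MeTA14 and 12.4-fold higher in TR15_MeTA5, or 3.31 and 3.64 on the log2 scale. A larger increase was seen for 547 of 15079 genes in TR9_MeTA14 and for 233 of 14343 in TR15_MeTA5. By limma, VIM rose by 3.48 on the log2 scale over both lines (SE 0.26, adjusted p = 0.0189), and 162 of 22819 probes tested had a smaller p. The adjusted p of VIM lay between 0.00194 and 0.0305 over the 12 settings of this test, and normexp background correction gave the smallest change, 2.91.

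FN1, on chromosome 2, was read by A_24_P334130, which the files pair with a single fibronectin transcript, NM_054034. Its untreated and treated signals were 47.1 and 12.9 in TR9_MeTA14 cells, the latter not well above background, and 272 and 258 in TR15_MeTA5. The gene was thus dim in TR9_MeTA14 and clearly measured in TR15_MeTA5. FN1 was at least 4.25-fold lower with tetracycline in TR9_MeTA14 and 1.56-fold lower in TR15_MeTA5. With normexp and quantile normalization the TR9_MeTA14 value was -0.57 on the log2 scale, in place of -2.09, and the cause was not tested. For both lines together limma estimated -1.42 (SE 0.48, adjusted p = 0.245), lower in 2 of 2 lines.

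CDH2, on chromosome 18, had 2 probes. The brighter, A_33_P3214159, gave 28.7 and 53.2 on the TR9_MeTA14 arrays and 24.6 and 38.1 on those of TR15_MeTA5, close above background on all 4 arrays. The other, A_23_P38732, was not well above background on any array, with signals between 3.73 and 11.3. N-cadherin transcript was therefore read near the lower limit of the arrays. The response of the brighter probe was 0.56 on the log2 scale in TR9_MeTA14 and 0.06 in TR15_MeTA5, where it was -0.12 with quantile normalization. The test over both lines gave 0.31 (SE 0.36, adjusted p = 0.649 by limma).

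Of the transcriptional repressors, SNAI1, on chromosome 20, encodes the zinc finger protein Snail. It had signals by A_23_P131846 of 1024 untreated and 1787 treated in TR9_MeTA14, against 389.7 and 1583 in TR15_MeTA5. Each treated array was higher than its untreated partner. The increase was 1.39-fold in TR9_MeTA14 and 2.75-fold in TR15_MeTA5, or 0.47 and 1.46 on the log2 scale, and 975 of 14343 genes rose more in TR15_MeTA5. Its limma estimate was 0.96 (SE 0.34, adjusted p = 0.254), higher in 2 of 2 lines but not past the threshold.

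SNAI2, which encodes the related factor Slug and lies on chromosome 8, was seen in TR15_MeTA5 alone. Its probe A_23_P169039 read 13.6 and 14.2 on the TR9_MeTA14 arrays, neither well above background, and 35.2 and 24.3 on those of TR15_MeTA5. It was 2.14-fold lower with tetracycline in TR15_MeTA5, and no fold change is given in TR9_MeTA14. This decrease was -0.42 on the log2 scale with normexp and -0.66 with spike-in scaling, in place of -1.10, and thus under 2-fold. SNAI2 did not pass the test over both lines, which it entered through the TR15_MeTA5 arrays alone.

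TWIST1, a basic helix-loop-helix factor on chromosome 7, had 2 probes that moved the same way in TR15_MeTA5, the only line that measured both. The brighter, A_33_P3414591, read 188.6 and 64.6 in TR9_MeTA14 cells and 397 and 355 in TR15_MeTA5 cells, untreated and treated. Its response was -1.88 on the log2 scale in TR9_MeTA14, or 3.67-fold lower, and -0.72 in TR15_MeTA5, or 1.65-fold lower. In TR9_MeTA14, 668 of 15079 genes fell more. The dimmer probe, A_23_P71073, read 15.3 and 3.88 in the former, neither well above background, and 32.2 and 23.8 in the latter, where it was 2-fold lower. For the brighter probe, limma estimated -1.30 over both lines (SE 0.38, adjusted p = 0.221), lower in 2 of 2 lines.

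ZEB1 and ZEB2 encode zinc finger homeobox repressors and lie on chromosomes 10 and 2. The brighter ZEB1 probe, A_33_P3374723, read 11.7 and 23.9 in TR9_MeTA14 cells and 4.76 and 11.3 in TR15_MeTA5 cells, and was well above background in TR9_MeTA14 +Tet alone. There the increase was at least 1.23-fold. The second ZEB1 probe, A_33_P3640690, stayed between 3.02 and 4.27. Both ZEB2 probes were below that level of detection on all 4 arrays, with signals of 4.03, 12.8, 9.01 and 5.36 for A_33_P3243832 and between 2.83 and 3.96 for A_23_P142560. Neither gene entered the test over both lines.

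Read by a 2-fold cut-off in either direction, the 10 genes did not divide by their epithelial or mesenchymal role. In TR9_MeTA14, of 8 genes with a fold change, VIM was higher and EPCAM, FN1 and TWIST1 were lower, beside 16.8% of all 15079 genes higher and 15.1% lower. In TR15_MeTA5, again of 8, VIM and SNAI1 were higher and SNAI2 was lower, beside 9.8% and 2.22% of 14343 genes. Of 7 genes with a value in both lines, VIM alone was higher in both and 0 were lower in both, beside 8.21% and 0.837% of 13979 genes. Of 8 genes tested by limma, VIM was higher and 0 were lower at an adjusted p below 0.05, beside 2.52% of 22819 probes higher and 0.00876% lower. At an unadjusted p under 0.05 there were 4 such genes, VIM, FN1, SNAI1 and TWIST1, and 4405 of all probes.

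Whether the medians of the groups moved in opposite directions in both lines depended on which mesenchymal genes were counted. The median log2 fold change of the 2 epithelial genes was -1.51 in TR9_MeTA14 and -0.43 in TR15_MeTA5. That of the 6 mesenchymal genes with a value in each line was 0.38 and -0.29, and that of all genes was -0.06 and -0.16. The 6 included ZEB1 in TR9_MeTA14 only and SNAI2 in TR15_MeTA5 only. Over the 5 mesenchymal genes with a value in both lines, the medians were 0.47 and 0.06, the latter within the technical SD. Of the 8 mesenchymal genes, 5 were well above background on each TR9_MeTA14 array and 6 on each TR15_MeTA5 array.

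**Figure D2:**
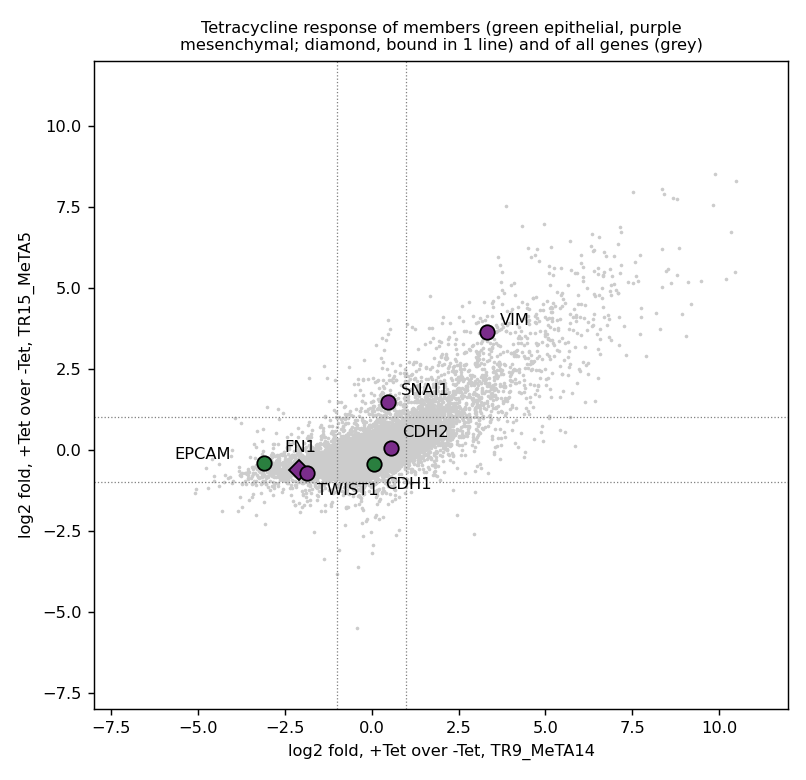
Tetracycline response (log2 fold, +Tet over -Tet) in TR9_MeTA14 on the x axis and in TR15_MeTA5 on the y axis, for the 7 genes with a value in both lines and, in grey, for all genes. Green points are epithelial, purple points mesenchymal, the diamond (FN1) is a bound in 1 line and dotted lines mark 2-fold. VIM lies beyond 2-fold on both axes, at 3.31 and 3.64, and EPCAM, FN1 and TWIST1 beyond it on the x axis only.

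Without tetracycline, the differences of 2-fold or more between the lines lay among the mesenchymal genes. FN1 was 9.74-fold higher in TR15_MeTA5 -Tet than in TR9_MeTA14 -Tet, and 27 of 13794 genes differed more in that direction. TWIST1 was 3.55-fold higher and SNAI2 at least 3.83-fold higher. These 3 of the 8 genes with a value were higher in TR15_MeTA5 and 0 were lower, beside 8.19% and 5.18% of all genes. CDH1 and EPCAM each differed by at most 1.32-fold between the lines, at 0.40 and -0.22 on the log2 scale, but with spike-in scaling EPCAM was -1.27.

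With tetracycline, the same 3 mesenchymal genes and EPCAM were higher in TR15_MeTA5, 4 of 8 genes, and 0 were lower, beside 14.2% and 10.4% of 14613 genes. FN1 was at least 26.6-fold higher, TWIST1 7.88-fold, EPCAM 5.55-fold and SNAI2 at least 2.45-fold. VIM was 1.03-fold higher in TR15_MeTA5 +Tet than in TR9_MeTA14 +Tet, a difference within the technical SD. Each of these differences sets 1 array against 1 array, and they were not tested. Scaling on spike-in probes shifted the median of all genes between the lines from 0.12 to -0.93 without tetracycline and from 0.07 to -0.66 with it. FN1 was then 2.23 and 3.97 on the log2 scale in TR15_MeTA5 over TR9_MeTA14, TWIST1 0.77 and 2.22, and CDH1 changed sign to -0.66 without tetracycline. SNAI2 fell under 2-fold in both conditions, at 0.88 and 0.53 with spike-in scaling and 0.55 and 0.17 with normexp and quantile normalization. The latter setting also gave 1.92 for FN1 in each condition, in place of 3.28 and 4.73.

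**Figure D3:**
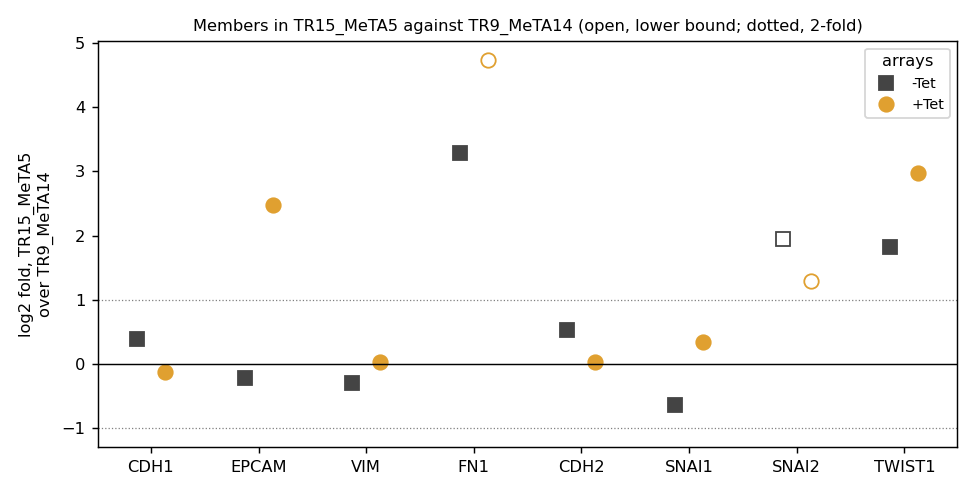
Difference between the lines (log2 fold, TR15_MeTA5 over TR9_MeTA14) for the 8 genes with a value, black squares for -Tet and orange circles for +Tet arrays. Open symbols are lower bounds and dotted lines mark 2-fold. FN1, SNAI2 and TWIST1 lie above the upper dotted line in both conditions, and EPCAM with tetracycline only.

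The scaling also set how many genes of the array counted as higher or lower. In TR15_MeTA5, 81.5% of the genes changed at least 2-fold with tetracycline were higher, 75.5% with quantile normalization, 92.1% with normexp and 95.6% with spike-in scaling. Between the untreated lines 61.2% of such genes were higher in TR15_MeTA5, but 50.6% with quantile normalization, 46.6% with normexp and 2.40% with spike-in scaling. Between the treated lines the share was 57.8%, and 13% with spike-in scaling. The plot of fold changes under 4 normalizations shows how little this touched VIM and EPCAM in TR9_MeTA14, and how much it touched FN1.

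**Figure D4:**
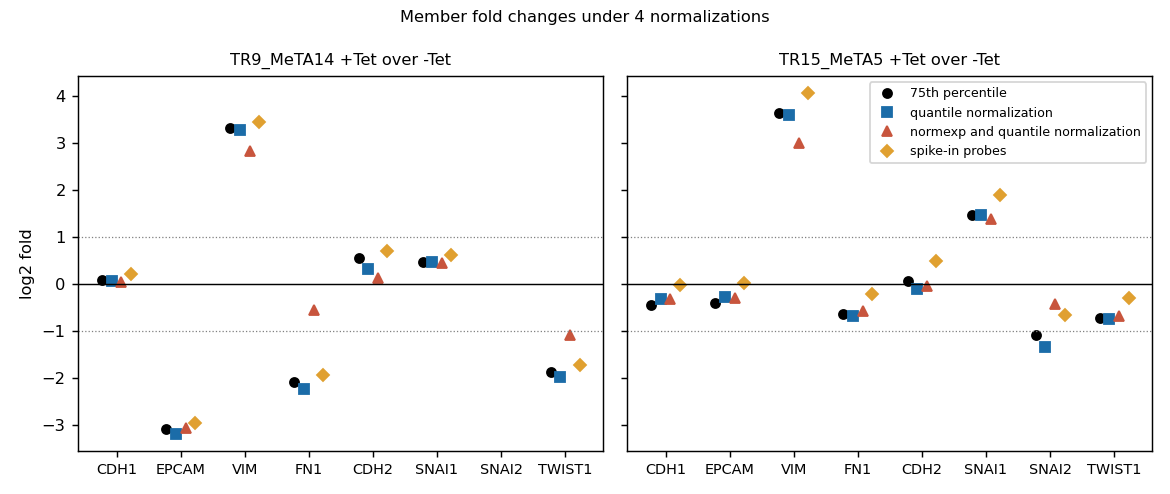
Tetracycline response (log2 fold, +Tet over -Tet) of 8 of the 10 genes in TR9_MeTA14 (left) and TR15_MeTA5 (right) under 4 normalizations, each with its own symbol. Dotted lines mark 2-fold. VIM stays above 2-fold under all 4 in both lines, with its lowest value at 2.83, while FN1 in TR9_MeTA14 ranges from -2.24 to -0.57.

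Other genes of the same programme were read as lists. Of 23 genes of cell junctions with a value in both lines, such as claudins, desmosomal proteins and catenins, 1 was at least 2-fold higher in both and 0 were lower in both, beside 8.21% and 0.837% of all genes. Their median log2 fold change was 0.06 in TR9_MeTA14 and -0.17 in TR15_MeTA5. Over the 13979 genes with values in both lines, these medians were -0.09 and -0.16. The gene was CDH3, which encodes P-cadherin, the cadherin of basal epithelial cells. Its untreated signals, 18.9 in TR9_MeTA14 and 12.3 in TR15_MeTA5, were not well above background, and its treated signals were 1892 and 1784. The increase was at least 79.6-fold and at least 78.2-fold. No p-value is given for a gene that, like CDH3, was at background on both untreated arrays, since it entered the fit through the treated arrays alone. The E-cadherin and P-cadherin genes thus had unlike responses, by 1 probe each.

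Of 33 further epithelial genes, 4 were higher by at least 2-fold in both lines and 1 was lower, beside the same 8.21% and 0.837%, with medians of 0.24 and -0.23. Among them were CD24 and MUC1, which encode surface glycoproteins, and the transcription factor gene KLF4. These 3 rose over both lines by limma, with adjusted p between 0.0268 and 0.0399. CD24 was 6.28-fold and 6.16-fold higher, KLF4 7.68-fold and 4.82-fold, and MUC1 6.06-fold and 4.76-fold. KRT19, a keratin of simple epithelia, was 3.28-fold and 2.33-fold lower, with an adjusted p of 0.101 by limma.

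Among 54 genes of the mesenchymal matrix and cytoskeleton, 29 had a value in both lines. Of these, 8 were at least 2-fold higher in both and 0 were lower in both, beside 8.21% and 0.837% of all genes. A gene at background on both untreated arrays had a value only where its treated signal was higher, so it could not count as lower. FBLN5, CNN1 and THBS2 entered the 8 in this way, and the rule was the same for all genes and lists. The medians of the 29 genes were 0.40 in TR9_MeTA14 and 0.85 in TR15_MeTA5. Of 34 with a value in TR9_MeTA14, 10 were at least 2-fold higher and 6 lower, beside 16.8% and 15.1% of all genes. Of 30 with a value in TR15_MeTA5, 13 were at least 2-fold higher and 0 lower, beside 9.8% and 2.22%. By limma, 5 of 33 tested were higher and 0 lower, beside 2.52% and 0.00876% of all probes. The 5 include FBLN5, CNN1 and THY1, which were at background on both untreated arrays and entered the test through the treated arrays alone. LOXL2, a lysyl oxidase that cross-links collagen, read 33.0 and 841 on the TR9_MeTA14 arrays, and 14.5 and 535 on those of TR15_MeTA5, 20.2-fold and at least 23.5-fold (adjusted p = 0.0167 by limma). COL6A1, a collagen VI chain, was 5.86-fold and 5.93-fold higher, from untreated signals of 18556 and 3542 (adjusted p = 0.0334 by limma). FBLN5 and CNN1, which encode an elastic fibre protein and a smooth muscle calponin, were higher by a factor of at least 6 on treatment of each line. LGALS1, which encodes galectin-1, was 74.6-fold higher in TR9_MeTA14 and 6.32-fold in TR15_MeTA5 but did not pass the test (adjusted p = 0.120 by limma). The collagen genes COL1A2 and COL3A1 and the cadherin gene CDH11, named here after their values were seen, had no value in either line.

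Of 31 further regulators of the transition, 24 had a value in both lines, 11 of these were at least 2-fold higher in both and 0 lower in both, again beside 8.21% and 0.837% of all genes, with medians of 1.34 and 0.89. By limma 4 of 25 tested were higher and 0 lower, beside 2.52% and 0.00876% of probes. These were the homeobox genes PRRX2 and MSX1, the T-box gene TBX2 and the neural crest factor SOX10, of which SOX10 was at background on both untreated arrays and entered the test through the treated arrays alone. PRRX2 went from 26.9 to 3192 and from 4.79 to 2141, 94.2-fold and at least 93.8-fold (adjusted p = 0.0167 by limma). TBX2 was at least 442-fold higher in TR9_MeTA14 and 41.5-fold in TR15_MeTA5 (adjusted p = 0.0442 by limma). SNAI3, of the same family as SNAI1 and SNAI2, was 19.5-fold and 3.39-fold higher, but did not pass the test (adjusted p = 0.141 by limma). These lists were chosen with earlier results of these data known, and nothing is called particular to them.

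**Figure D5:**
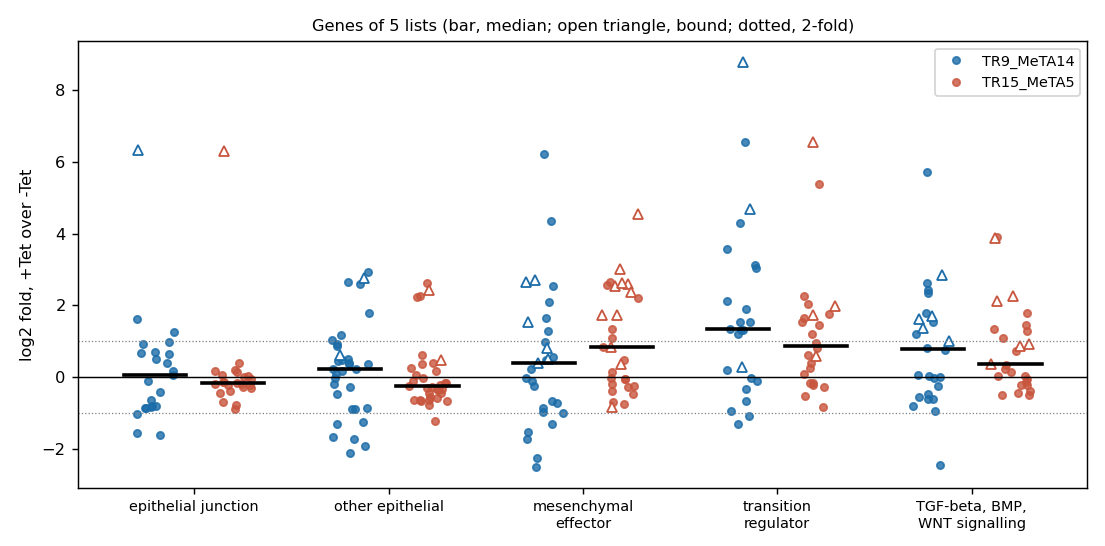
Tetracycline response (log2 fold, +Tet over -Tet) of the genes of 5 lists with a value in both lines, blue for TR9_MeTA14 and red for TR15_MeTA5. Each symbol is a gene, open triangles are bounds, black bars are medians and dotted lines mark 2-fold. The medians of the regulator list, 1.34 and 0.89, are the highest of the 5 in each line, and the single pair of triangles far above the other junction genes is CDH3.

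Markers of cell types other than luminal cells were also read, since the mesenchymal genes are shared with stromal cells. Of 9 fibroblast markers, COL1A1 and, with tetracycline, THY1 were well above background, and COL1A2, COL3A1, DCN, LUM, PDGFRA, PDGFRB and FAP were not on any array. Their summed scaled signal, in units of the 75th percentile of the array, went from 0.830 to 0.748 with tetracycline in TR9_MeTA14 cells, and from 0.218 to 0.540 in the other line. Of 6 basal prostate markers, TP63, KRT5 and KRT14 were not well above background on any array, and ITGB4 was 5.33-fold and 6.67-fold higher with tetracycline. KRT15, the only other basal marker with a value in both lines, was 1.11-fold higher in TR9_MeTA14 and 1.03-fold lower in TR15_MeTA5. NGFR was at least 6.09-fold higher in TR15_MeTA5 and had no value in TR9_MeTA14. The summed signal of the basal markers went from 0.650 to 2.63 and from 0.560 to 2.05 in these lines. Of 6 endothelial markers, between 2 and 4 were well above background, and 3 had a value in both lines. CLDN5 was 13.3-fold and at least 14.6-fold higher. CDH5 was 1.08-fold and 1.31-fold lower, and VWF 1.32-fold and 1.47-fold lower, in TR9_MeTA14 and TR15_MeTA5. The summed signal of the endothelial markers went from 0.818 to 1.40 and from 0.931 to 1.31. Of 5 leukocyte markers with a probe, 4 or 5 were well above background, and all 5 had a value in both lines. In both lines 3 of the 5 were at least 2-fold higher, CD14 and CD68 among them, and 0 were lower, beside 8.21% and 0.837% of all genes. PTPRC was 1.19-fold higher in TR9_MeTA14 and 1.54-fold lower in TR15_MeTA5. CD3E was 1.33-fold higher in the former and at least 2.55-fold lower in the latter. The summed signal of the leukocyte markers went from 0.638 to 3.56 and from 1.49 to 3.50. The part of these changes in those of VIM and the other mesenchymal genes was not tested.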

How the data were processed

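Total RNA of the 4 conditions was labeled with Cy3 and hybridized to Agilent whole human genome microarrays by the authors, 1 array per condition on the same slide. They deposited the intensity of every spot as written by Agilent Feature Extraction, version 10.7.3.1 per the file headers (the submitters' processing notes list 9.5.1). The processed signal is background-subtracted and not normalized between arrays, and the deposited series table held the same values on all 44495 rows. Columns of other samples numbered 0.

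Outlier spots were left out (255 to 344 per array), log2 signals were averaged per probe, and the 75th percentile over non-control probes was subtracted, which lowered +Tet to -Tet ratios by 1.26 in TR9_MeTA14 and 1.48 in TR15_MeTA5. RefSeq on GRCh38.p14 named 74.5% of probes with 1 gene, and where a gene had several probes the brightest on average was used. The 2-fold cut-off is that of the study, which used it for increases, and it was applied here to decreases and between the lines too. The lines served as repeats of the treatment in a limma fit (version 3.58.1, R 4.3.3) with a term for the line and a trend on intensity, which left 1 residual degree of freedom and was checked on simulated data. It covered the 22819 probes flagged well above background on 2 or more arrays, and p-values were adjusted over all of these by the Benjamini-Hochberg method. Python 3.11.15 was used for the rest. The genes, the lists and the tests were chosen with earlier results of these data known. Named genes are the 10 members, the listed genes at least 2-fold changed in both lines (up to 6 per list and direction), and the 3 nearest in pattern to CDH1 and to VIM. A few genes this rule would name are not reported here. TRPM8, KLK3, CDH11 and single markers of other cell types were named outside this rule. So were the TGF-beta ligand and receptor genes, SMAD2 and SMAD4, after their values were seen.

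Alternatives were quantile normalization, scaling on a median, on spike-in probes or on the percentile of spots, normexp (offset 50, on median pixel intensities) with quantile normalization, the series table, all spots kept, plain ratios, other filters and cut-offs, the mean over probes, no block and no trend.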

Additional observations from a re-analysis of the deposited data

How the results depend on the processing

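The -Tet and +Tet arrays of each line form a pair, and the limma fit compared them within each line through its term for the line. VIM was called without that term too. There was no replicate to leave out. VIM was the only one of the 10 genes called by limma under all 12 settings of that test, and 0 were called lower. The series table equals the processed signals and shows nothing about stability. Of 8 genes with a value, the 1 lower in TR15_MeTA5 became 0 with spike-in scaling, normexp, the filter on all 4 arrays or a 3-fold cut-off, 2 with no filter and 3 at 1.5-fold. Higher in TR15_MeTA5 were 1 at 3-fold in place of 2, and higher in TR9_MeTA14 were 2 with no filter in place of 1. At 1.5-fold, 2 were lower in both lines in place of 0. Between the untreated lines, 3 higher in TR15_MeTA5 became 1 with spike-in scaling and 1 when all 4 arrays had to measure the probe. There, 0 lower became 3 with spike-in scaling and 1 at 1.5-fold. Between the treated lines, 4 higher became 2 under that filter. CDH1 over both lines reversed from -0.19 to 0.10 on the log2 scale with spike-in scaling. Filters and cut-offs change these counts by construction, spike-in scaling shifts all genes of an array alike, and otherwise the cause was not tested. CDH2, SNAI2, ZEB1 and ZEB2 lie at or close to background, as does FN1 in TR9_MeTA14 +Tet. This limits some of their values to bounds, leaves others without a fold and makes small changes hard to see.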

Other observations

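Signals of the TGF-beta, BMP, WNT, NOTCH and FGF pathways, which act upstream of the transition, were read from 36 genes, of which 26 had a value in both lines. Of these, 8 were at least 2-fold higher in both and 0 lower in both, beside 8.21% and 0.837% of all genes, with medians of 0.80 in TR9_MeTA14 and 0.36 in TR15_MeTA5. By limma, 3 of 26 tested were higher and 0 lower, beside 2.52% and 0.00876% of all probes. FGFR3, a growth factor receptor, had untreated signals of 236 and 378 and treated ones of 15639 and 8352 in TR9_MeTA14 and TR15_MeTA5, which is 52.6-fold and 14.9-fold higher (adjusted p = 0.0338 by limma). The ligand genes BMP4 and WNT5A were at background without tetracycline, and were at least 7.13-fold and 4.34-fold higher for BMP4 and at least 3.23-fold and 4.77-fold for WNT5A. Both are among the 3 called by limma, but entered that test through the treated arrays alone. The TGF-beta ligand genes TGFB1, TGFB2 and TGFB3 and the receptor genes TGFBR1 and TGFBR2 were not well above background on any array. SMAD2 and SMAD4 were lower in both lines, by less than 2-fold. SMAD3, which carries the TGF-beta signal to the nucleus, was 5.12-fold and 3.49-fold higher, WNT5B at least 3.09-fold and 2.54-fold, and the WNT receptor gene FZD7 3.45-fold and 2.46-fold, but none of the 3 passed the test, with adjusted p of 0.0563, 0.185 and 0.108 by limma.

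Over the 4 arrays, the genes whose pattern lay nearest to VIM, by Euclidean distance of centred log2 signals among 12697 genes, were HTRA1 (0.36), TUBB2A (0.37) and TAMALIN (0.40). HTRA1, a secreted serine protease gene, read 63.7 and 800.2 on the TR9_MeTA14 arrays and 41.9 and 637 on those of TR15_MeTA5. Nearest to CDH1 were FBXO8 (0.03), ATG10 (0.03) and SRRM2-AS1 (0.04). With 4 arrays such a ranking describes these arrays only.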
